A study of Oryzias latipes with 2 samples.

Results

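The genes gapdh, gapdhs, eno1a and H6PD of sugar metabolism were followed across the cells of medaka skin. They are 4 of the 23601 features in the deposited matrices and were taken by their symbols, each of which matched 1 feature (gapdh ENSORLG00000012224, gapdhs ENSORLG00000006033, eno1a ENSORLG00000005625 and H6PD ENSORLG00000003550). They were chosen by their UMI levels in these same data, which earlier readings had shown to differ between skin cell classes, so their levels and shares are given here as a description with no test. All of them were detected in both libraries, with 876 UMIs for gapdh, 7297 for gapdhs, 4251 for eno1a and 1552 for H6PD. A UMI is a unique molecular identifier, and each counted UMI stands for 1 captured transcript molecule.

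Glyceraldehyde-3-phosphate dehydrogenase, the enzyme that gapdh and gapdhs encode, oxidises a triose phosphate in the middle of glycolysis and makes NADH. In mammals the GAPDHS copy is known as the sperm form and GAPDH as the form of nearly all other cells. Enolase, encoded by eno1a and its relatives, makes phosphoenolpyruvate near the end of the same pathway. H6PD encodes hexose-6-phosphate dehydrogenase, which in mammals carries out the first steps of the pentose phosphate pathway inside the endoplasmic reticulum and supplies NADPH there.

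The cells came from skin and scales of adult wild-type male and female medaka (Oryzias latipes) of the HdrR inbred strain, which the labels give as of the Southern phenotype. Tissue was digested with TrypLE, a trypsin-like enzyme, at 37 °C for 1 h, Draq5 served as the nuclear stain, and sorting by GFP and mCherry signals enriched pigment cells. The labels name no transgene or other source of these signals. Loadings aimed at 10000 and 1000 cells gave 2 libraries, called run 1 and run 2, with the same labels, so they form 1 group, and nothing says that they came from separate fish. There is no treatment or genotype contrast, and the comparisons are between cell classes.

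Run 1 held 25236411 UMIs in 4702 barcodes and run 2 held 6946744 in 614, and the runs shared 0 barcodes. After filtering, 4347 and 556 cells were left, with a median of 4145 and 10198 UMIs per cell. The runs differed in make-up: xanthophore-like cells (yellow to orange pigment cells) were 48.6% of run 1 and 1.26% of run 2, and leucophore-like cells (white pigment cells) 0.575% and 39.0%. Class names rest on marker genes. Leucophore-like cells held pax7a at 1362 and 1961 CPM in runs 1 and 2, where CPM is the number of UMIs of a gene per 1000000 UMIs of the summed cells. Xanthophore-like cells of run 1 held pax7a at 998 CPM, so this marker is shared. Of the other leucophore markers, pax3b (18.6 and 27.8 against 213 CPM) and slc2a15a (30.9 and 54.1 against 70.5 CPM) were lower in leucophore-like cells. The level of slc2a15b was similar, at 272 and 355 against 319 CPM. The xanthophore-like cells of run 1 held scarb1, a carotenoid uptake receptor, at 1667 CPM, against 37.1 and 6.48 CPM in leucophore-like cells. The xanthophore marker csf1ra was not lower in leucophore-like cells, at 786 and 677 against 552 CPM. The iridophore-like cells (reflective pigment cells) held pnp4a, a purine enzyme, at 2344 CPM. The 7 xanthophore-like cells of run 2 also held the melanin genes pmela and tyr at 3181 and 1021 CPM, against 0.5 and 101 CPM in the 2114 of run 1, so run 1 is used for this class. Iridophore-like cells numbered 29 in run 1 and 1 in run 2 and are described in run 1.

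In nearly every skin class the transcripts of this enzyme came from gapdhs and not from gapdh. In leucophore-like cells gapdhs stood at 192 CPM in run 1 (exact Poisson 95% interval 130 to 272, 31 UMIs in 25 cells) and at 196 CPM in run 2 (179 to 214, 514 UMIs in 217 cells). In those cells gapdh was at 0 UMIs in run 1 and at 18.3 CPM in run 2 (13.5 to 24.3, 48 UMIs). The gapdhs share of the UMIs of both paralogs was 91.5% in run 2 (exact binomial 95% interval 88.8 to 93.6). In run 1 it was 31 of 31 UMIs (88.8 to 100). Intervals cover counting error only. The counts are of transcript 3′ ends, so no length scaling applies between the paralogs. How completely each 3′ end is covered by the annotation was not tested, and reads shared between near-identical stretches of paralogs may have been split or lost in the authors' counting.

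Xanthophore-like cells of run 1 used the same paralog, with gapdhs at 227 CPM (218 to 237, 2272 UMIs) and gapdh at 24.2 CPM (21.2 to 27.4, 242 UMIs), a gapdhs share of 90.4% (89.2 to 91.5). In iridophore-like cells both paralogs were high: gapdhs at 445 CPM (308 to 622, 34 UMIs) and gapdh at 144 CPM (71.9 to 258, 11 UMIs). Their gapdhs share was 75.6% (60.5 to 87.1). The level of gapdh there was 5.96 times that of xanthophore-like cells (exact interval of the ratio 2.93 to 10.8) and 63.5 times that of keratinocyte-like cells (27.5 to 139). The 11 UMIs lay in 9 of 29 cells, with at most 2 in a cell.

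**Figure D1:**
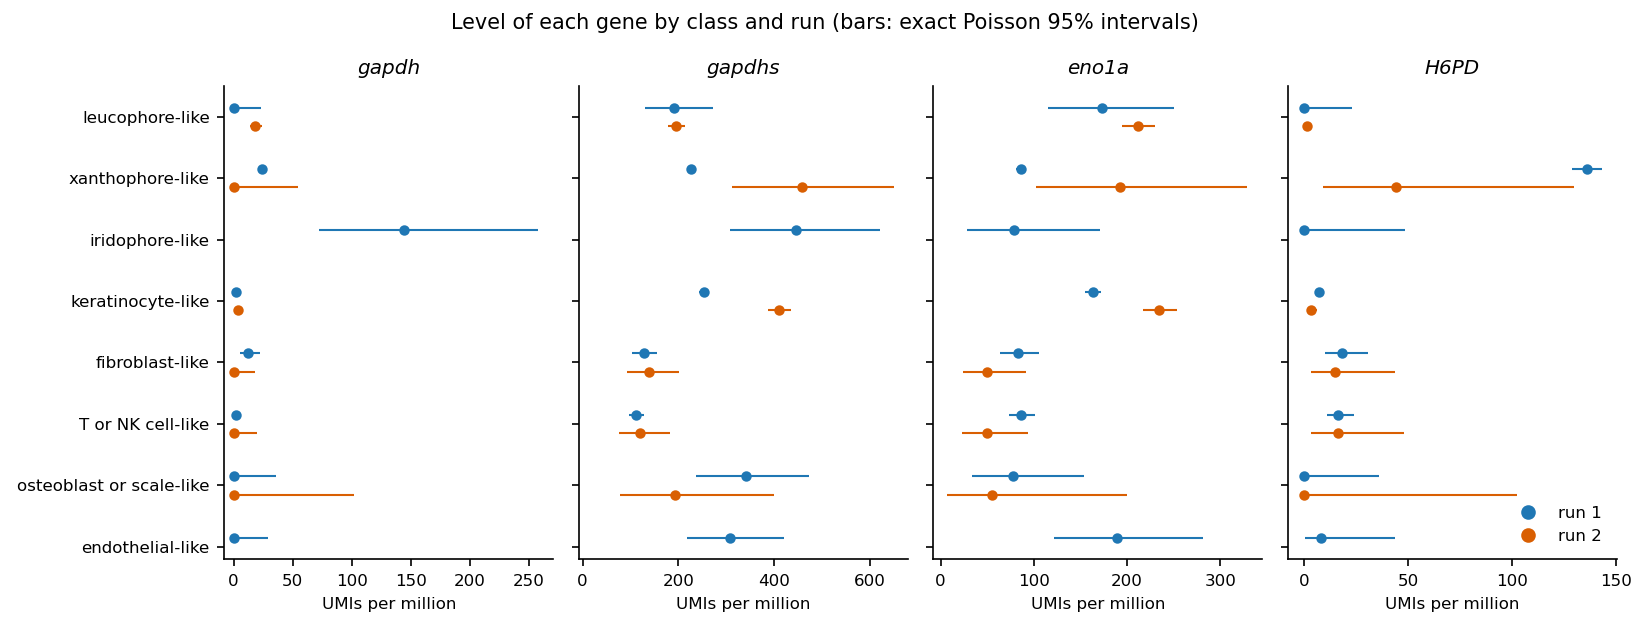
Level of gapdh, gapdhs, eno1a and H6PD (CPM, horizontal axes, each panel with its own scale) in each cell class (vertical axis), run 1 in blue and run 2 in orange, as summed counts with exact Poisson 95% intervals. Sums of fewer than 7 cells are left out. H6PD stands at 136 in the xanthophore-like cells of run 1 and at no more than 18.3 in the run 1 sums of the other classes plotted, while gapdh is highest in iridophore-like cells, at 144.

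In run 1 the share of gapdhs was higher in keratinocyte-like and in T or NK cell-like cells than in xanthophore-like cells, with intervals apart, while that of fibroblast-like cells overlapped. Keratinocytes, the epithelial cells of the epidermis, held gapdhs at 253 CPM in run 1 and 411 CPM in run 2, and gapdh at 2.27 and 3.61 CPM. Their gapdhs share was 99.1% in each run (98.6 to 99.5 in run 1, 98.4 to 99.6 in run 2). T or NK cell-like cells (lymphocytes) held gapdhs at 112 and 120 CPM and gapdh at 4 UMIs in run 1 and 0 in run 2, with a share of 97.9% in run 1 (94.8 to 99.4). Fibroblast-like cells of the dermis held gapdhs at 128 and 140 CPM, with a share of 91.6% in run 1 (84.6 to 96.1) and 28 of 28 UMIs in run 2. No gapdh UMI was seen in endothelial-like, osteoblast or scale-like or neutrophil-like cells. Over both runs these held 57, 42 and 39 gapdhs UMIs, with exact lower limits of the gapdhs share of 93.7%, 91.6% and 91.0%. The 13 neutrophil-like cells of run 1 had the highest gapdhs level of any named class, 2224 CPM (1574 to 3052) from 38 UMIs.

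Read in order of gapdhs level in run 1, neutrophil-like cells were followed by iridophore-like cells at 445, osteoblast or scale-like cells at 341 and endothelial-like cells at 307 CPM, whose intervals overlap. Next came keratinocyte-like, xanthophore-like and leucophore-like cells at 253, 227 and 192 CPM. The ratio of xanthophore-like to keratinocyte-like levels was 0.896 (0.845 to 0.95), and that of leucophore-like to xanthophore-like levels 0.845 (0.573 to 1.2), an interval that includes equal levels. Among classes with over 10 cells, the lowest were fibroblasts at 128 and lymphocytes at 112 CPM, with overlapping intervals. In run 2 keratinocyte-like cells held 2.1 times the gapdhs level of leucophore-like cells (1.89 to 2.33). In run 1 the ratio was 1.32 (0.928 to 1.95), an interval that includes equal levels.

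A group of 15 cells reversed the pattern. They formed a cluster led by fabp6, a bile acid and fatty acid binding protein, chia.3, a chitinase, and apoa1b, an apolipoprotein. These genes were not in every cell. In run 1 fabp6 had a UMI in 9 of 9 cells, and chia.3 and apoa1b in 2 each. In run 2 each of them had a UMI in 3 of 6 cells. By marker score the cluster came nearest to keratinocytes, with 9 of 20 markers met, krt4 among them. It was left without a cell type name by hand, because fabp6, chia.3 and apoa1b are not keratinocyte genes. The epithelial adhesion gene epcam stood at 6442 and 5582 CPM in runs 1 and 2, while krt5 had 1 UMI in each run. Counted as keratinocyte-like, the cluster would take the gapdhs share of keratinocytes over both runs from 99.1% to 86.1%. In run 1 its 9 cells held 0 gapdh UMIs at the lowest, 18 at the median and 31 at the highest, and in run 2 its 6 cells held 14, 49 and 120. All of these cells were without a gapdhs UMI, 0 of 516 UMIs of the pair. At a floor of 3 UMIs that allows a gapdhs share of up to 0.581%. The single cell without gapdh was also the shallowest, with 1726 UMIs in all. These cells were 0.306% of the 4903 cells and held 58.9% of the 876 gapdh UMIs. Their eno1a level, 240 CPM in run 1 and 155 CPM in run 2, lay within the range of the epidermal clusters.

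**Figure D2:**
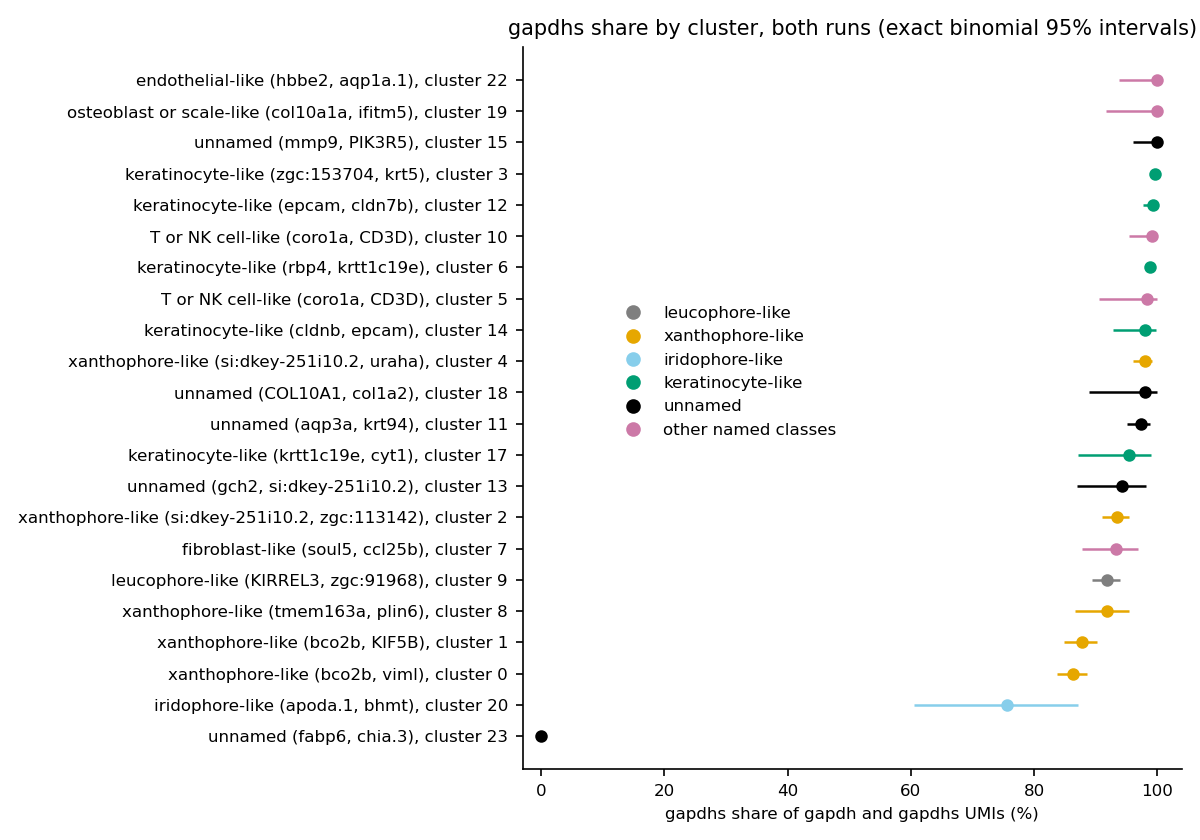
Share of gapdhs among the UMIs of gapdh and gapdhs (percent, horizontal axis) for each cluster with at least 40 such UMIs, both runs summed, with exact binomial 95% intervals; clusters are named by class and by 2 of their leading genes. The cluster led by fabp6 and chia.3 stands at 0, the iridophore-like cluster at 75.6%, and the xanthophore-like clusters spread from 86.3% to 97.9%.

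Within xanthophore-like cells gapdh was more uneven than gapdhs. By cluster in run 1, gapdh stood at 39.9 CPM in the cluster led by bco2b and viml, at 31.2 CPM in that led by bco2b and KIF5B, and at 15.5, 5.2 and 15.1 CPM in the other three. The intervals of the highest (32.8 to 48.1) and the lowest (2.38 to 9.86), the latter led by si:dkey-251i10.2 and uraha, are apart. The level of the cluster led by bco2b and KIF5B rests on few cells: 5 of its 485 cells held 50 of its 74 gapdh UMIs, and the other 480 held 24. In the cluster led by tmem163a and plin6, 1 of 258 cells held 5 of 14 gapdh UMIs, and the other 257 stood at 9.70 CPM. In the cluster led by bco2b and viml, 4 of 546 cells held 29 of 111, and the other 542 stood at 29.8 CPM. Over the same clusters gapdhs ranged from 170 to 245 CPM, with the cluster led by tmem163a and plin6 lowest (145 to 199) and also the shallowest, at a median of 2950 UMIs per cell.

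The xanthophore gapdh signal was sparse and uneven. Of the xanthophore-like cells in run 1, 93.9% held no gapdh UMI, against 89.4% expected from depth alone at an even level. Of 2114 cells in run 1, 128 held a gapdh UMI, 93 of them only 1, and the variance per cell was 0.501 at a mean of 0.114. The 10 cells with 5 or more gapdh UMIs (5 to 14 each) held 84 of the 242 gapdh UMIs, 34.7%, and 6 gapdhs UMIs, a gapdhs share of 6.67%. They were picked for their gapdh UMIs after the values were seen, which by itself lowers their gapdhs share and raises that of the cells left, so these shares are a description. No gapdhs UMI was found in 7 of these 10 cells and in 907 of all 2114 cells (42.9%), the 10 cells lying at a median of 5361 UMIs per cell against 4488 in the rest. Their xanthophore markers were in place: csf1ra, the receptor kinase of this lineage, had a UMI in 10 of the 10 cells and stood at 522 CPM against 552 CPM in the rest, and scarb1 had a UMI in 9. Their fabp6 count was 0. Without these cells the gapdhs share of xanthophore-like cells in run 1 was 93.5%. The leucophore-like cell of run 2 with the most gapdh, picked in the same way, held 16 of the 48 gapdh UMIs, 1 gapdhs UMI, 63 pax7a UMIs and 0 fabp6 UMIs. The next highest leucophore-like cell held 5 UMIs of each paralog. Without that cell the leucophore-like share of run 2 was 94.1%.

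Many cells held UMIs of both paralogs. In run 1, 65.6% of the 128 xanthophore-like cells with a gapdh UMI also had a gapdhs UMI, against 56.5% of the cells without one, and the former were deeper, with medians of 5422 and 4402 UMIs. In leucophore-like cells of run 2 the shares were 85.0% of 20 cells and 74.6%, at medians of 15702 and 11549 UMIs. These counts include the cells picked above for their gapdh, of which 3 of the 10 xanthophore-like cells and the leucophore-like cell had a gapdhs UMI. Depth moved with these shares, and its part in them was not tested.

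**Figure D3:**
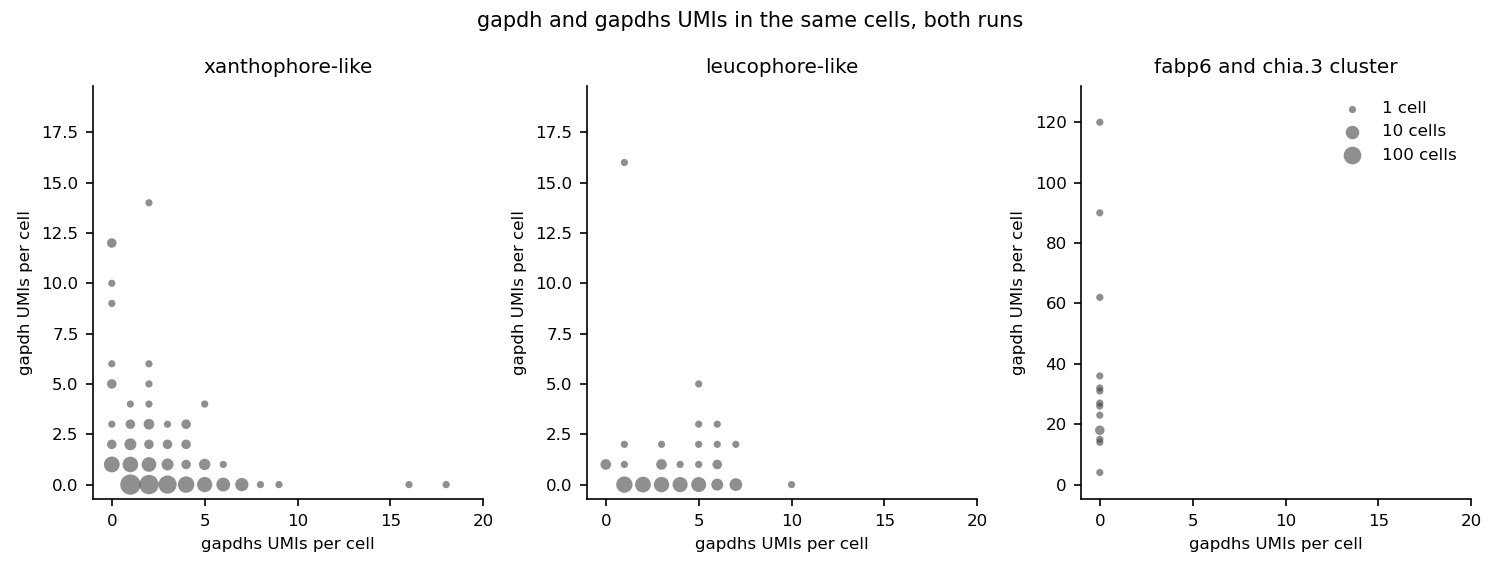
UMIs of gapdh (vertical axis) against UMIs of gapdhs (horizontal axis) in single cells of both runs that hold at least 1 of either, for xanthophore-like cells, leucophore-like cells and the cluster led by fabp6 and chia.3; the area of a point grows with the number of cells at that pair of counts, and the third panel has its own vertical scale. Cells with 6 or more gapdh UMIs have at most 2 gapdhs UMIs: the highest leucophore-like cell has 16 gapdh and 1 gapdhs UMIs, and the highest cell of the third panel has 120 and 0.

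The main enolase of skin was eno1a in all classes with enolase UMIs. It was highest in leucophore-like and keratinocyte-like cells among the large classes. Leucophore-like cells held 173 CPM in run 1 (115 to 250, 28 UMIs) and 212 CPM in run 2 (194 to 230, 555 UMIs), and keratinocyte-like cells 163 CPM (155 to 172) and 234 CPM (217 to 253). The leucophore to keratinocyte ratio was 1.06 (0.702 to 1.54) in run 1 and 0.903 (0.805 to 1.01) in run 2. On CPM, which scales by total UMIs alone, neither run separates them. Xanthophore-like cells held 86.0 CPM (80.4 to 92.0), which left the leucophore-like level of run 1 at 2.01 times theirs (1.33 to 2.93). T or NK cell-like, fibroblast-like, iridophore-like and osteoblast or scale-like cells lay at 86.4, 82.5, 78.6 and 77.9 CPM in run 1, all with intervals that overlap that of xanthophore-like cells. Endothelial-like cells lay at 189 CPM and the 13 neutrophil-like cells at 1053 CPM.

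Xanthophore-like cells of run 1 differed from keratinocyte-like cells and lymphocytes in their second enolase. The feature ENO2 (ENSORLG00000012577), named for the neuronal enolase of mammals, had 226 UMIs in xanthophore-like cells, 22.6 CPM. There eno1a made up 78.3% of the enolase UMIs (75.8 to 80.7). In keratinocyte-like cells the eno1a share was 99.3% in run 1 and 99.4% in run 2, and in lymphocytes of run 1 99.3%. Leucophore-like cells held 93.3% in run 1 (28 of 30 UMIs, 77.9 to 99.2) and 98.4% in run 2. Iridophore-like cells of run 1 held 6 of 6 UMIs (54.1 to 100). These run 1 intervals of leucophore-like and iridophore-like cells overlap the xanthophore-like one. Within xanthophore-like cells ENO2 was highest in the cluster led by si:dkey-251i10.2 and zgc:113142, at 43.8 CPM (35.5 to 53.5), and lowest in that led by tmem163a and plin6, at 9.7 CPM (4.4 to 18.4). The other family members, eno1b, eno2 and eno4, had 8, 2 and 2 UMIs in xanthophore-like cells of run 1.

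By CPM in run 1, both gapdhs and eno1a varied more among keratinocyte-like clusters than between keratinocytes and pigment cells. In run 1 the cluster led by rbp4 and krtt1c19e held gapdhs at 438 CPM (409 to 468) and eno1a at 342 CPM (317 to 369), and in run 2 538 and 294 CPM. The cluster led by zgc:153704 and krt5 held 216 and 98.7 CPM in run 1, and 261 and 153 CPM in run 2. The cluster led by cldnb and epcam had the lowest gapdhs in run 1, at 125 CPM (101 to 154). The first of these clusters made up 89 of the 164 keratinocyte-like cells of run 2 but 233 of the 904 of run 1, which moves with the higher keratinocyte levels of run 2. Lymphocyte clusters also differed: gapdhs stood at 56.5 CPM (42.4 to 74.0) in the cluster led by coro1a, CD3D and CCR9, and at 174 CPM (142 to 210) in that led by coro1a, CD3D and samsn1a, with eno1a at 45.9 and 159 CPM.

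**Figure D4:**
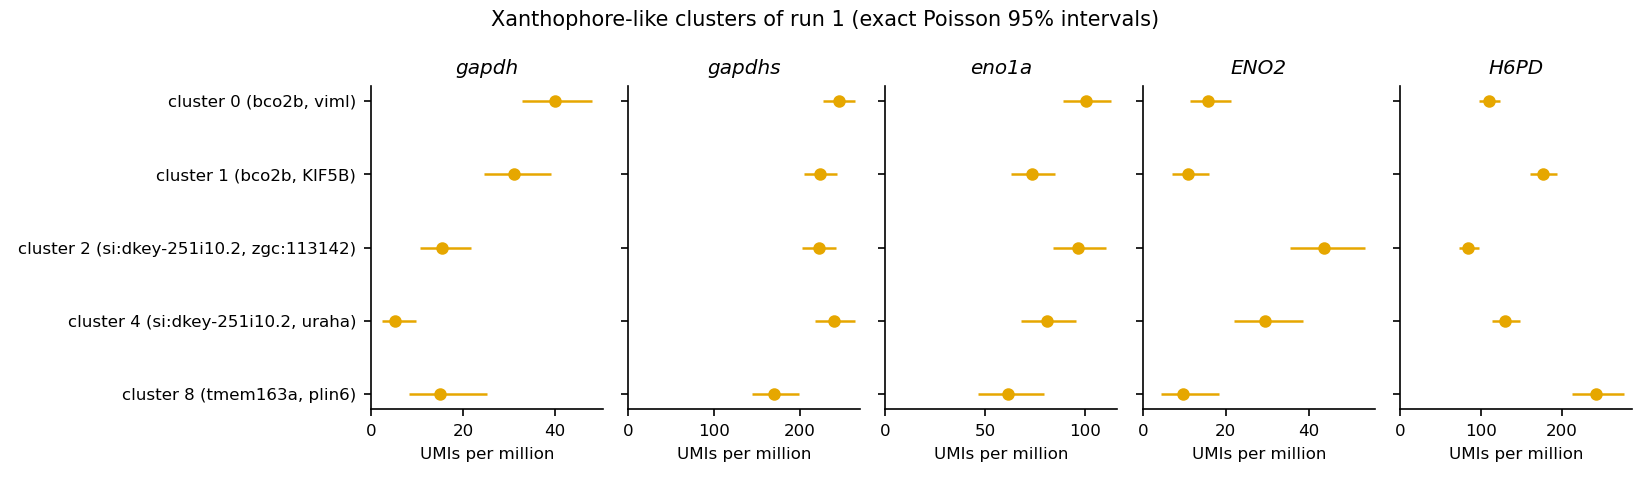
Levels of gapdh, gapdhs, eno1a, ENO2 and H6PD (CPM, horizontal axes, each from 0) in the 5 xanthophore-like clusters of run 1 (vertical axis, with 2 leading genes each), with exact Poisson 95% intervals. The clusters led by bco2b are highest in gapdh, at 39.9 and 31.2, the latter with 50 of its 74 UMIs in 5 cells, the cluster led by tmem163a and plin6 is highest in H6PD, at 242, and gapdhs spans 170 to 245.

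H6PD was concentrated in xanthophore-like cells. In run 1 they held 1360 of 1525 H6PD UMIs, 89.2%, while making up 48.6% of the cells and 42.2% of all UMIs. Their level was 136 CPM (129 to 143), 18.7 times that of keratinocyte-like cells (14.6 to 24.5), 8.26 times that of the T or NK class (5.69 to 12.5) and 7.41 times that of fibroblast-like cells (4.40 to 13.6). Leucophore-like cells, the class nearest to xanthophores in their shared pax7a and csf1ra, held 0 H6PD UMIs in run 1 and 4 in run 2, 1.52 CPM (0.42 to 3.90) in 217 cells. Against the floor of 3 UMIs in the leucophore-like sum of run 1, the xanthophore-like level was 7.32-fold higher, and the exact lower limit of the ratio was 5.94. Iridophore-like cells of run 1 held 0 H6PD UMIs. The xanthophore-like level was 3.46-fold higher than their floor of 3 UMIs, and the exact lower limit of that ratio was 2.81. The 7 xanthophore-like cells of run 2 held 3 UMIs, 44.4 CPM (9.15 to 130), an interval that reaches into the one of run 1.

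Per cell, 39.2% of xanthophore-like cells of run 1 held an H6PD UMI at a median depth of 4493 UMIs, with at most 8 in a cell. The share was 6.19% in keratinocyte-like cells at a median of 8370 UMIs and 1.38% in leucophore-like cells of run 2 at 11782. With each cell thinned to 1000 UMIs and shallower cells left out (91, 51 and 2 cells), the expected shares were 12.9%, 0.82% and 0.19%. Beside the xanthophore marker scarb1, there were 8.15 H6PD UMIs per 100 scarb1 UMIs in xanthophore-like cells of run 1, 23.0 in fibroblast-like cells, 98.5 in keratinocyte-like cells (64 H6PD and 65 scarb1 UMIs) and 187 in the T or NK class (28 and 15). Per 100 UMIs of pax7a the fibroblast-like value was close to the xanthophore-like one, at 13.9 and 13.6. The part of RNA from xanthophores in the low levels elsewhere was not tested.

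In run 1 the xanthophore-like clusters differed in H6PD, all above each of the other named classes of at least 20 cells. The neutrophil-like and erythrocyte-like sums held 0 H6PD UMIs in 17087 and 20232 UMIs, too few to place them below these clusters. The cluster led by tmem163a and plin6 was highest at 242 CPM (212 to 276), followed by that led by bco2b and KIF5B at 176 CPM (160 to 194). The clusters led by si:dkey-251i10.2 and uraha at 130 CPM (113 to 148) and by bco2b and viml at 110 CPM (98.0 to 123) have overlapping intervals, and that led by si:dkey-251i10.2 and zgc:113142 was lowest at 84.5 CPM (72.7 to 97.5). An unnamed cluster led by gch2, si:dkey-251i10.2 and MLANA, with genes of several pigment cells, held 123 CPM in its 110 cells of run 1. The unnamed cluster led by fabp6, without pigment cell genes among its leading genes, held 74.4 CPM in run 1, from 9 UMIs in 4 of its 9 cells. In run 2 it held 21.1 CPM, from 3 UMIs.

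Features with a class pattern most like that of each gene were ranked by Pearson's r of log2(CPM + 10) over the 8 run 1 classes of at least 20 cells, among 4309 features, as a description. For H6PD the top 5 were XDH (xanthine dehydrogenase, 0.919), bco2b (a carotenoid-cleaving oxygenase, 0.917), DIXDC1, tfa and opn4xb. For gapdh they were cpvl (0.980), bloc1s5, FAHD2A, wdr91 and tmtops2b, for gapdhs SDC3 (0.907), amdhd2, rhebl1, abcf1 and arhgap46a, and for eno1a STIM2 (0.924), api5, rbm4.3, MPV17L and ZHX1. The points share a library, and the 4 classes of run 2 did not carry the order over for H6PD, where r with XDH was -0.68 in the absence of a xanthophore-like sum. For gapdh the run 2 values were mixed. There r was -0.25 with cpvl, -0.36 with bloc1s5 and -0.43 with tmtops2b, but 0.53 with FAHD2A and 0.38 with wdr91. The paralogs gapdh and gapdhs had an r of 0.397 over the 8 classes.

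The other genes of these pathways were compared between classes with edgeR's quasi-likelihood test on summed counts, with the run as a block and Benjamini-Hochberg adjustment over all genes tested. Calls needed an adjusted p under 0.05 together with a log2 fold change of 1 or more in either direction. With the run as a block, a shift shared by all classes of a library is taken out. The runs are 2 libraries of 1 group, so these p-values rest on how far class differences disagree between the libraries, which may be technical. The xanthophore-like class enters with its run 1 sum alone, assumed to vary like the others. The lists leave out gapdh, gapdhs, eno1a and H6PD, and they were kept from shaping the clusters. Between leucophore-like and xanthophore-like cells 5.6% of 12850 genes were called, 2.56% higher and 3.04% lower in leucophore-like cells.

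In that comparison each pathway list had at most 1 called gene. With 5.6% of all genes tested called, such counts do not set lists of this size apart. On simulated counts the comparison recovered 11.8% of changes of log2 fold 2 and 75.3% of those of log2 fold 4, so a gene not called may still differ. The simulation gave all genes 1 fixed spread, not estimated from these data, so recovery in the data may be other than this. Of 16 glycolysis genes tested, leucophore-like cells were lower in 1 and higher in 0, with a median log2 fold change of -0.19 against -0.04 over all genes (with total counts in place of TMM scaling, 0.13 over all genes, with 524 genes higher and 467 lower in place of 329 and 391). Of 20 genes of gluconeogenesis and glycogen, fbp1a, fructose-1,6-bisphosphatase, was lower at 0 and 1.91 against 38.8 CPM (-4.24, SE 1.07, edgeR adjusted p 0.0026). Of 16 genes of NADPH supply and endoplasmic reticulum redox, hsd11b1la (ENSORLG00000004562), a relative of the steroid reductase that draws on H6PD's NADPH in mammals, was lower at 0 and 1.52 against 24.6 CPM (-3.63, SE 1.03, edgeR adjusted p 0.012). The calls of fbp1a and hsd11b1la were lost without the leucophore-like sum of run 2, and that of hsd11b1la also with DESeq2. None of 9 lactate and pyruvate genes and none of 10 pentose phosphate genes was called by edgeR. The most abundant of the latter, the phosphoribosyl pyrophosphate synthetases prps1b and PRPS2, reached 173 and 103 CPM and 86.7 and 97.2 CPM in the leucophore class, against 105 and 79.3 CPM in the xanthophore class. The glycolytic pkma, pyruvate kinase, was not called, at 136 and 141 against 157 CPM.

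Against keratinocyte-like cells many genes of all kinds differed, so the lists have to be read against a high background. Leucophores differed in 41.3% of 9630 genes, 17.7% higher and 23.7% lower, and xanthophore-like cells in 35.5% of 12850 genes, 15.9% higher and 19.7% lower. Scaling decides much of that split: in the leucophore comparison TMM factors were 0.690 and 0.652 for keratinocyte-like sums and 1.47 and 1.15 for leucophore-like ones. The CPM levels and ratios of the 4 genes use total counts, so they depend on it too. In leucophore-like cells the eno1a log2 fold change was -0.94 with TMM and -0.02 with total counts. That of gapdhs was -1.69 and -0.76. In xanthophore-like cells gapdhs stood at -1.16 and -0.39, eno1a at -2.01 and -1.24, and H6PD at 3.62 and 4.40. With total counts in place of TMM, the median log2 fold change of all genes went from -0.16 to 0.71 in the leucophore comparison, with 3318 genes higher and 1626 lower in place of 1704 and 2278. In the xanthophore comparison it went from -0.05 to 0.72, with 3951 higher and 2063 lower in place of 2038 and 2527.

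Of 14 glycolysis genes tested, 2 were higher and 7 lower in leucophore-like than in keratinocyte-like cells, and of 16 tested in xanthophore-like cells 4 were higher and 6 lower. With total counts these were 2 and 4, and 4 and 5. Both pigment classes were lower in the phosphofructokinases PFKL (0 and 1.52 CPM in leucophore-like and 0.60 in xanthophore-like against 15.1 and 26.3 CPM) and PFKP (ENSORLG00000005745), in the aldolase aldocb, in 1 hexokinase feature (HK1, ENSORLG00000010420) and in pgk1, phosphoglycerate kinase. Both were higher in the other hexokinase feature (HK1, ENSORLG00000000069), at 30.9 and 18.3 CPM in leucophore-like and 23.7 in xanthophore-like against 0.79 and 0.36 CPM. The log2 fold changes of that feature were 4.47 (SE 0.86, edgeR adjusted p 1.2e-06) and 4.08 (SE 0.86, edgeR adjusted p 1.65e-05). Lower in leucophore-like cells alone among these calls were pkma (136 and 141 against 176 and 328 CPM) and hk2; xanthophore-like cells were lower in gpib, glucose phosphate isomerase, and higher in ENO2 (22.6 against 0.34 and 0.72 CPM; 4.54, SE 0.99, edgeR adjusted p 2.8e-05). The aldolase aldoab was called higher in both classes, but with 0 and 6.48 CPM in leucophore-like cells, and there its direction turned without the run 2 sum. The calls of pgk1 in both comparisons, and of pkma and hk2, were lost with total counts. Sums were left out 1 at a time, from the classes compared only, and the single xanthophore-like sum could not be left out. The glycolysis calls that held throughout were aldocb and HK1 (ENSORLG00000000069) in leucophore-like cells, and PFKL and PFKP in xanthophore-like cells. The others named lost the call, or were no longer tested, without at least 1 sum. In leucophore-like cells these were PFKL, HK1 (ENSORLG00000010420) and pkma without keratinocyte run 2, PFKP without leucophore run 2, pgk1 without either of these, hk2 without leucophore run 1 or either keratinocyte run, and aldoab without leucophore run 2 or either keratinocyte run. In xanthophore-like cells all others named depended on keratinocyte run 1, and gpib, pgk1 and HK1 (ENSORLG00000010420) also on keratinocyte run 2. With DESeq2, 2 were higher and 4 lower of the 16 in xanthophore-like cells, and the calls of ENO2, gpib, aldoab and pgk1 were lost. Over all 12850 genes DESeq2 called fewer too, 920 higher and 1491 lower in place of 2038 and 2527. In leucophore-like cells aldoab was not called with DESeq2, with no filter or with only the 2 classes compared, nor hk2 and pgk1 with no filter.

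The genes of gluconeogenesis, glycogen and their control showed 3 higher and 3 lower of 11 in leucophore-like cells, and 4 higher and 2 lower of 20 in xanthophore-like cells. The bifunctional enzymes that set fructose-2,6-bisphosphate split by gene: pfkfb3 was lower in both classes, with 80.5 and 137 CPM for leucophores and 53.4 for xanthophores against 330 and 675 CPM, while pfkfb4b and pfkfb4a were higher. Glycogenin gyg1b, the primer of glycogen, was lower in both, at 43.3 and 24.4 CPM and at 18.2 against 214 and 231 CPM (-3.77, SE 0.55, edgeR adjusted p 5.4e-11, and -4.59, SE 0.78, edgeR adjusted p 3.6e-08). The glycogen branching enzyme GBE1 was higher in both, at 24.8 and 37.7 CPM and at 37.7 against 3.85 and 5.05 CPM. The phosphoglucomutase relative pgm5 was higher in xanthophore-like cells at 15.3 CPM, and fbp1a lower in leucophore-like cells, a call that was lost with total counts. With total counts the numbers were 3 higher and 2 lower in leucophore-like, and 7 higher and 2 lower in xanthophore-like cells. The calls of gyg1b and pfkfb3 held in leucophore-like cells with any 1 leucophore-like or keratinocyte-like sum left out, as did that of pfkfb4b. In xanthophore-like cells those of gyg1b and pfkfb3 held without either keratinocyte-like sum. In leucophore-like cells GBE1 and pfkfb4a lost the call without leucophore run 2 or either keratinocyte run, and fbp1a without any 1 of the 4 sums. In xanthophore-like cells pfkfb4b, pgm5, GBE1 and pfkfb4a lost it without keratinocyte run 1, and pfkfb4a also without keratinocyte run 2. With DESeq2, pgm5 and pfkfb4a were not called in xanthophore-like cells, and with no filter pfkfb4a was not called in either class.

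Of the lactate and pyruvate genes, 1 was higher and 1 lower in each pigment class, of 8 and 9 tested. The higher one was pdk4, a kinase that shuts pyruvate dehydrogenase, at 12.4 and 25.9 CPM in leucophore-like and 36.8 in xanthophore-like against 2.27 and 0.72 CPM. The lower one was ldhbb, lactate dehydrogenase B, at 0 and 0.38 CPM and at 0.3 against 11.3 and 12.3 CPM. The most abundant of this list, mpc2b and pdha1a, were not called. None of the 8 and 10 pentose phosphate genes tested was called by edgeR in either comparison with TMM scaling and all sums; with total counts 1 and 2 were called higher. In leucophore-like cells 2 of 8 were called lower with only the 2 classes compared and 1 without leucophore run 2. Over all genes these settings called 2674 of 9600 and 1578 of 9401 lower. In xanthophore-like cells 1 was called lower with DESeq2 and 1 of 11 with no filter, beside 1491 of 12850 and 3268 of 20281 over all genes. In the list of NADPH supply, 1 was higher and 2 lower of 12 in leucophore-like cells, and 1 higher and 4 lower of 16 in xanthophore-like cells. The malic enzyme me3 was higher in both, at 18.6 and 10.3 CPM and at 17.7 against 0.45 and 1.08 CPM, and mthfd2, a folate enzyme, was lower in both. Both features of hsd11b1la (ENSORLG00000004520 and ENSORLG00000004562) were lower in xanthophore-like cells, the former not with total counts, and ENSORLG00000004562 was lower in leucophore-like cells too, against 64.6 and 67.4 CPM in keratinocyte-like cells (-6.10, SE 0.81, edgeR adjusted p 6.6e-13). The malic enzyme me1 was lower in xanthophore-like cells. With total counts this list had 5 higher and 2 lower in leucophore-like, and 5 higher and 3 lower in xanthophore-like cells. The calls of pdk4 and ldhbb in xanthophore-like cells held without either keratinocyte-like sum. That of hsd11b1la (ENSORLG00000004562) in leucophore-like cells held with any 1 leucophore-like or keratinocyte-like sum left out. In leucophore-like cells pdk4 lost the call, or was no longer tested, without leucophore run 2 or keratinocyte run 2, ldhbb without either of these or keratinocyte run 1, me3 without either leucophore run or keratinocyte run 1, and mthfd2 without keratinocyte run 1. In xanthophore-like cells me1, me3, mthfd2 and hsd11b1la (ENSORLG00000004520) lost it without keratinocyte run 1, and hsd11b1la (ENSORLG00000004562) without keratinocyte run 2. With DESeq2 the NADPH list had 1 higher and 1 lower in xanthophore-like cells, me1 and both features of hsd11b1la losing the call. Over all 12850 genes DESeq2 called 920 higher and 1491 lower there.

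**Figure D5:**
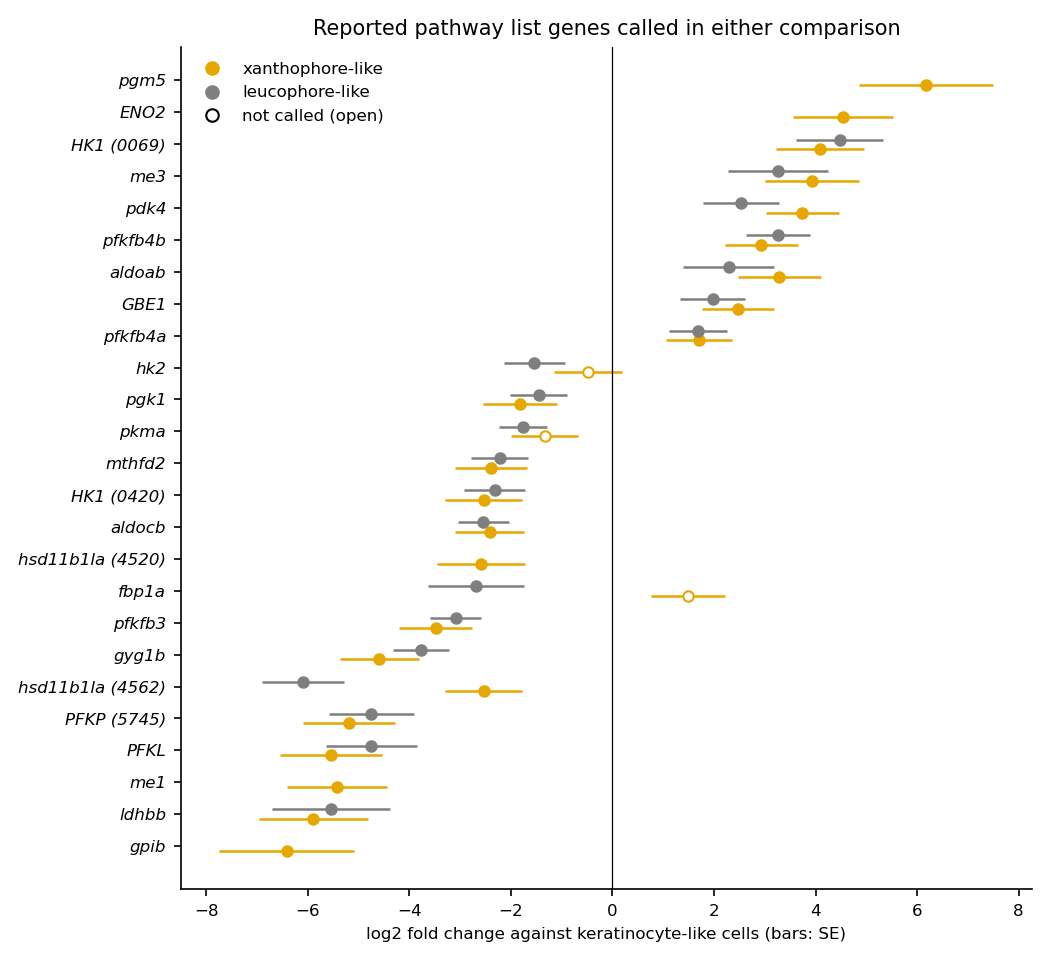
Log2 fold change against keratinocyte-like cells (horizontal axis, bars show 1 SE) of the pathway list genes reported here and called in either comparison (vertical axis), for xanthophore-like cells in yellow and leucophore-like cells in grey; open points were not called and a missing point was not tested. The last 4 digits of the identifier tell features with the same symbol apart, and gyg1b stands at -4.59 in xanthophore-like and at -3.77 in leucophore-like cells.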

How the data were processed

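The authors deposited UMI counts per gene and cell barcode for each of 2 libraries, made with Cell Ranger 7.1.0 per the submitters' processing notes. Genome build: not given in the sources used here. Gene names are those of the files. Barcodes needed at least 500 UMIs, 300 genes and at most 20% mitochondrial UMIs. Scrublet called 3 and 1 doublets on its own threshold, so the top 4% of scores (156 and 21 barcodes) were removed. Counts were scaled to 10000 per cell, and 2000 variable genes, 30 principal components, 15 neighbours and Leiden resolution 1 gave 27 clusters (scanpy 1.11.5, python 3.11.15), with no integration of runs. Variable genes were picked without the 104 features of the gene lists (the 4 genes included) and without mitochondrial ones.

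Clusters were named from markers of 22 classes (204 matched features): at least 3 markers in 10% of cells at 2-fold the median cluster, and the highest mean log2 ratio to the median (10 CPM added). Of the 27 clusters, 6 stayed unnamed, either where leading genes went against the name or where the UMI count was low and no marker was among the leading genes. The cluster led by fabp6 was left unnamed by hand. These scoring rules were set after the data were seen. The 4 genes, the lists and the tests were chosen with earlier results of these data known. Named genes are the 4 genes, their families, and per list and comparison up to 6 called genes in each direction and the 2 most abundant.

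Levels are sums per run and class per 1000000 UMIs, with exact 95% Poisson or binomial intervals (scipy 1.17.1) and a floor of 3 UMIs. Sums of at least 10 cells were tested with edgeR 4.0.16 (TMM, filterByExpr, run as a block, R 4.3.3, limma 3.58.1); all classes with 2 such sums entered, 8 sums in all. The 7 xanthophore-like cells of run 2 were too few, so that class was added with its run 1 sum, a choice made after the data were seen. The SE is derived from the test's F statistic. DESeq2 1.42.0 was an alternative. The test was checked on simulated counts with known changes. Some genes of the lists are not reported here, although they count in the list totals.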

Additional observations from a re-analysis of the deposited data

How the results depend on the processing

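Of 82 other settings for levels and shares (besides leaving out a run), 75 moved the value by less than the spread between runs and 7 by more. That spread is the standard deviation of the values of the 2 runs. For xanthophore-like cells it rests on the 7 cells of run 2 and was wide. It was 17.1 CPM for gapdh, at 24.0 CPM over both runs, and 64.7 CPM for H6PD, at 135 CPM. For leucophore-like cells it rests on 25 cells in run 1. There it was 12.9 CPM for gapdh, at 17.2 CPM, and 1.08 CPM for H6PD, at 1.44 CPM. Few settings could exceed such spreads. Leiden resolution 2 and list genes allowed among variable genes gave 242 leucophore-like cells, as in the main setting, with the same values. For the keratinocyte-like gapdhs share the spread was 0.0128 points, so small shifts counted as moves. The count of settings therefore says little. As a mean over cells, leucophore-like gapdhs was 182 CPM (196 as summed) and eno1a 175 CPM (209), keratinocyte-like gapdh 4.72 CPM (2.59) and the keratinocyte-like gapdhs share 98.96% (99.1%). That share was 99.2% with a minimum of 1000 UMIs, 99.0% with likely doublets kept and 86.1% with the cluster led by fabp6 counted in, a setting chosen after the data were seen. With 1 run alone, the gapdhs share ran from 91.5% to 100% in leucophore-like, 90.4% to 100% in xanthophore-like and 99.1% to 99.1% in keratinocyte-like cells. In the same way gapdh ran from 0 to 18.3, 0 to 24.2 and 2.27 to 3.61 CPM, gapdhs from 192 to 196, 227 to 459 and 253 to 411, eno1a from 173 to 212, 86.0 to 192 and 163 to 234, and H6PD from 0 to 1.52, 44.4 to 136 and 3.24 to 7.26. The xanthophore-like values of run 2 rest on 7 cells.

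DESeq2 called 391 genes in place of 720 between leucophore-like and xanthophore-like cells and 2411 in place of 4565 between xanthophore-like and keratinocyte-like cells. Leaving out 1 sum of the classes compared gave 424 to 522 genes in the first comparison and 1674 to 3398 in the second. Between leucophore-like and keratinocyte-like cells it gave 2238 to 3830 in place of 3982. In that order, the lowest counts came without the leucophore-like sum of run 2, the keratinocyte-like sum of run 1 and the leucophore-like sum of run 2. Without the run as a block the counts were 957, 4304 and 3852. Fits of xanthophore-like and 1 other class alone, and fits without a xanthophore-like sum, could not be made with its single sum. Depth limits what is said of leucophore-like cells in run 1 and of iridophore-like cells, where the floor of 3 UMIs stands at 18.6 and 39.3 CPM.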

Other observations

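Among unnamed clusters, the 82 cells led by mmp9, PIK3R5 and rgs13 held eno1a at 336 CPM in run 1 and 844 CPM in run 2, gapdhs at 242 and 667 CPM, and no gapdh UMI, 0 of 93 UMIs of the pair. The 185 cells led by aqp3a and krt94 held gapdhs at 205 and 260 CPM with a gapdhs share of 97.3%, and H6PD at 5.54 CPM in run 1.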
